A study of Caenorhabditis elegans with 2 samples.

Results

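The genes described here carry the symbols of proteins of the cytosolic ribosome of Caenorhabditis elegans, and are called ribosomal protein genes below. They are the protein-coding genes of the Ensembl annotation of WBcel235 whose symbol is rpl-, rps- or rla- followed by a number, and the choice used no measured value. There are 81 of them among 19973 protein-coding genes of the nuclear chromosomes. Of these, 50 were assigned by symbol to the large subunit (rpl- and rla-) and 31 to the small subunit (rps-). The symbol rule takes in rpl-24.2, a relative of the yeast biogenesis factor Rlp24. It leaves out ubl-1 and ubq-2, which encode ribosomal proteins as fusions and are counted separately.

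Where these genes lie relative to the tagged protein ZK546.5 was read from chromatin immunoprecipitation followed by sequencing (ChIP-seq), which recovers DNA fragments held by a chosen protein. The worms were whole L4 larvae, the last larval stage, of mixed sex. They were of strain OP231, genotype unc-119(ed3) III; wgIs231, and carried a stable transgene that joins GFP-FLAG to the C-terminal end of ZK546.5. There was 1 group of 2 biological replicates, both with this genotype. Neither untagged worms nor the control experiment that the labels point to were analysed here, so the signal at these genes without the tagged protein is not known here. The labels name the antibody only as ZK546.5 and do not say what drives the transgene. In whole larvae, occupancy in few cells and weaker occupancy in many cells cannot be told apart.

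The cytosolic ribosome has a small subunit, which holds the messenger RNA and reads its codons, and a large subunit, which joins the amino acids and lets the new chain leave through a tunnel. Its protein genes are highly expressed in growing animals. In C. elegans the start of many transcripts, including those of ribosomal protein genes, is replaced by a spliced leader, so an annotated gene start can lie downstream of the place where transcription begins.

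The data are the authors' lists of regions, each with a summit and a signal value set by their peak caller. The pooled list and the list of each replicate held 30000 regions, which include background by design, and the IDR set held the 92 regions of the pooled list with the highest signal (IDR, irreproducible discovery rate, scores whether a region ranks alike in the replicates). Signal values ranged from 9.83 to 1072 in the pooled list, from 6.73 to 637 in replicate 1 and from 4.61 to 441 in replicate 2. The scale of these values is not known, so they are compared only within a list, with rank 1 for the highest. For each gene the highest region with a summit within 1 kb of its start was taken. No read counts were given, so the depth is unknown.

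An IDR summit lay within 1 kb of the start of 13 of the 81 ribosomal protein genes (16%), beside 93 of all 19973 protein-coding genes (0.466%). Because rpl-41.1 and rpl-41.2 shared a peak, these were 12 peaks, or 16.4% of the 73 nuclear IDR peaks. Conversely, ribosomal protein genes were 14% of the 93 genes with an IDR summit and 0.406% of all protein-coding genes. The other 68 ribosomal protein genes had none, so the strong regions were at a minority of the genes of this complex.

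The same order was seen at wider ranks and in each replicate list. A pooled region of rank 1000 or better was found near 23 ribosomal protein genes (28.4%), beside 2.54% of all protein-coding genes. At rank 92 or better in replicate 1 the share was 14.8% of ribosomal protein genes and 0.411% of all genes. At rank 1000 or better in replicate 1 it was 24.7% of ribosomal protein genes and 2.4% of all genes, and in replicate 2 it was 22.2% and 2.55%. When any of the 30000 pooled regions counted, the shares were 72.8% of ribosomal protein genes and 49.1% of all genes. With any region of replicate 1 counted, they were 61.7% of ribosomal protein genes and 49% of all genes. Each replicate list held a region of rank 1000 or better, at any place within 1 kb, near 13 ribosomal protein genes (16%) and 0.556% of all genes. These are not the 13 with an IDR summit. They include rpl-3, whose summits were 665 bp upstream in replicate 1 and 240 bp in replicate 2, and leave out rpl-17. Among genes with a pooled region, the median signal was 17.0 over the 59 ribosomal protein genes and 13.4 over all genes, and the median rank was 4417 for ribosomal protein genes and 12788 for all genes.

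**Figure D1:**
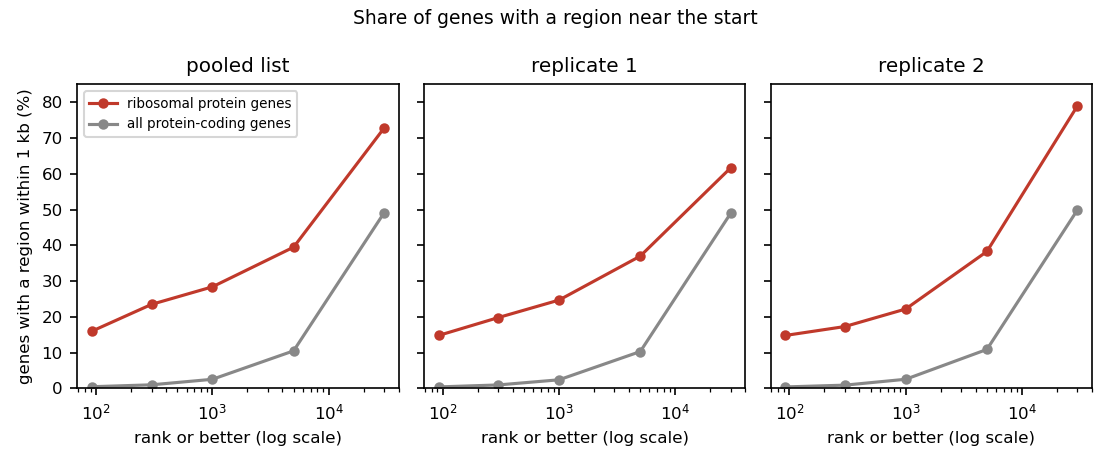
Share of genes (%) with a region within 1 kb of the start, against the rank that a region had to reach (log scale), in the pooled list and each replicate list. Ribosomal protein genes (red) lie above all protein-coding genes (grey) at every rank plotted, with 28.4% against 2.54% at rank 1000 in the pooled list.

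The large and small subunits had the same share of genes with an IDR summit, 8 of 50 (16%) for the large and 5 of 31 (16.1%) for the small subunit. A pooled region of rank 1000 or better was near 15 large subunit genes (30%) and 8 small subunit genes (25.8%). The median pooled signal was 17.3 over the 37 large subunit genes with a region and 15.4 over the 22 small subunit genes with one. Genes are not replicates, so no test was made of this gap. The ranges of the 2 subunits overlapped.

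**Figure D2:**
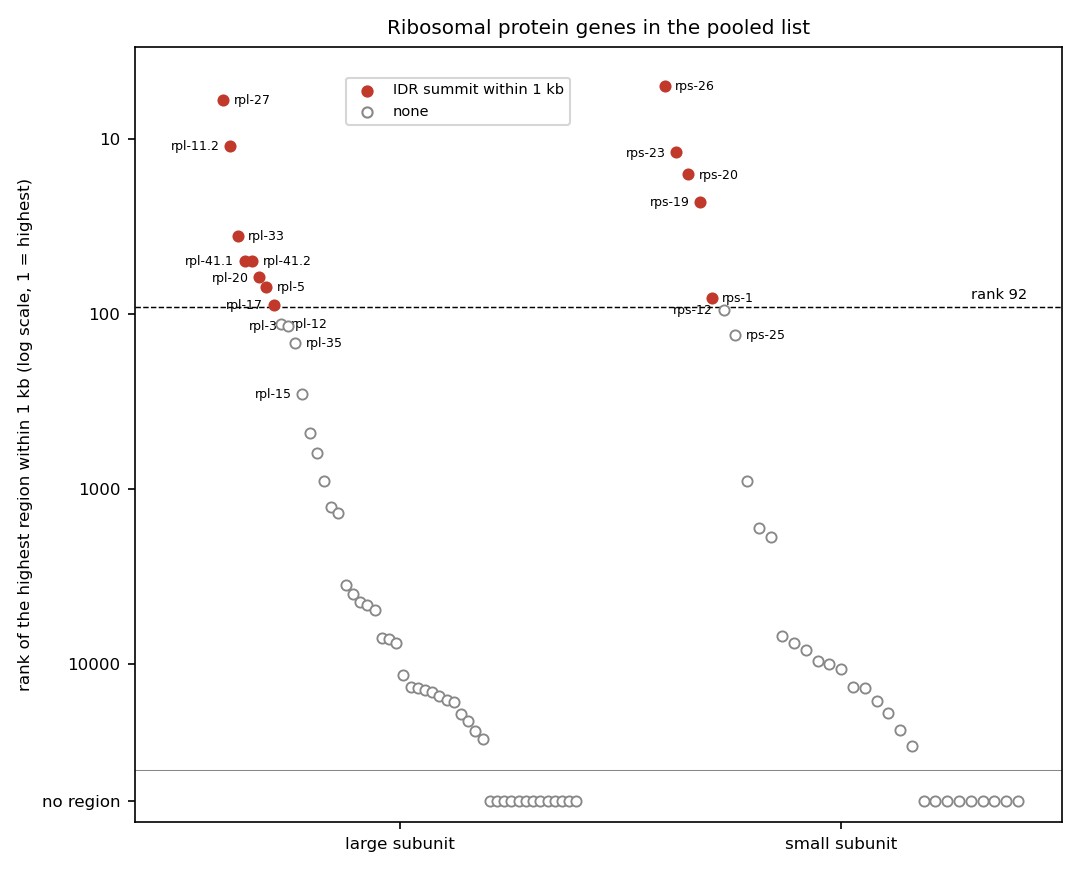
Rank of the highest pooled region within 1 kb of each ribosomal protein gene (log scale, highest at the top), large subunit on the left and small subunit on the right, with genes that had no region along the bottom. Filled points had an IDR summit, and the dashed line is rank 92. In both subunits a few genes stand at the top and most lie far below.

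In the large subunit the highest region belonged to rpl-27 (WBGene00004441). Its signal was 527 in the pooled list (rank 6), 315 in replicate 1 and 212 in replicate 2, but the summit lay 719 bp downstream of the rpl-27 start and 59 bp from the start of egl-30, which encodes the alpha subunit of the Gq protein. The next was rpl-11.2 (WBGene00004423), with 298 in the pooled list (rank 11), 176 in replicate 1 and 124 in replicate 2. RPL-11 binds the 5S ribosomal RNA together with RPL-5. The rpl-11.2 summit was 391 bp upstream of the start, and no other protein-coding gene started nearer to it, though the non-coding RNA gene AH9.7 started 106 bp away. The rpl-5 region itself was among the lower ones of the IDR set, at 49.9 in the pooled list (rank 70), 24.7 in replicate 1 and 27.7 in replicate 2.

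Between these stood rpl-33, rpl-41.1, rpl-41.2 and rpl-20. The rpl-33 region had a signal of 109 in the pooled list (rank 36), 60.5 in replicate 1 and 50.5 in replicate 2, with its summit 356 bp upstream. The pooled region nearest to the rpl-33 start, rather than the highest, had 27.5. The genes rpl-41.1 and rpl-41.2 encode a very short basic peptide and lie one behind the other on the same strand. Their shared region had 63.5 in the pooled list (rank 50), 33.0 in replicate 1 and 29.6 in replicate 2. Its summit was 864 bp downstream of the rpl-41.1 start and 238 bp upstream of the rpl-41.2 start. The rpl-20 region had 54.9 in the pooled list (rank 62), 25.6 in replicate 1 and 24.6 in replicate 2. All of these were within rank 100 in both replicates.

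The lowest of the ribosomal protein genes with an IDR summit was rpl-17, whose protein lies near the exit of the peptide tunnel. Its signal was 36.6 in the pooled list (rank 89) and 26.2 in replicate 1 (rank 84). The pooled region nearest to the rpl-17 start had 17.5. In replicate 2 the highest region within 1 kb had 11.8 and a rank of 1141, with its summit 991 bp downstream. The nearest region of replicate 2 to the IDR summit had 10.6, rank 2012, with its summit 174 bp away. It was the only gene of the 13 whose highest regions in the 2 replicates lay more than 200 bp apart.

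In the small subunit rps-26 (WBGene00004495) had the highest region of all 81 genes. RPS-26 lines the channel through which messenger RNA leaves the small subunit. The signal at rps-26 was 551 in the pooled list (rank 5), 342 in replicate 1 (rank 4) and 203 in replicate 2 (rank 6). The region spanned chrI:14759378-14759694 (ce11), with the summit 390 bp upstream of rps-26. A start of the ciliary gene tmem-107 lay 67 bp from the summit, and the snoRNA gene F39B2.14 started 128 bp from it. rps-23, whose protein sits at the decoding centre, had 269 in the pooled list (rank 12), 167 in replicate 1 and 102 in replicate 2, with the summit 286 bp upstream.

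rps-20 and rps-19 followed. The rps-20 region had 243 in the pooled list (rank 16), 134 in replicate 1 and 109 in replicate 2. The rps-19 region had 177 in the pooled list (rank 23), 126 in replicate 1 and 49.7 in replicate 2. Mutations of the human counterpart of rps-19 cause Diamond-Blackfan anaemia. The rps-1 region was lower, with 39.0 in the pooled list (rank 81), 19.8 in replicate 1 (rank 228) and 19.9 in replicate 2 (rank 80). The replicate ranks of the other small subunit genes of the IDR set were all 34 or better.

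Across the 13 genes, both replicate lists held a region whose summit was within 200 bp of the IDR summit, in 26 of 26 cases over the 2 lists, at a median of 3.5 bp. In 12 of the 13 the highest region of each replicate was that one. Among the 68 genes without an IDR summit, the replicates' highest regions were at the same place for 10 (14.7%) and more than 200 bp apart for 17 (25%). Over all protein-coding genes these shares were 8.45% and 18.7%. A further 10 of the 68 (14.7%) had a region in replicate 1 alone, 24 (35.3%) in replicate 2 alone and 7 (10.3%) in neither. Over all protein-coding genes these shares were 21.8%, 22.7% and 28.3%. Of all ribosomal protein genes with a region in both replicates, 22 of 40 (55%) had them at the same place, beside 31.1% of all protein-coding genes with a region in both. Of the 22, 12 had an IDR summit, and the IDR set was made from these same lists. Without an IDR summit, the counts were the 10 at the same place and 17 apart given above, so the 55% does not describe those genes.

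**Figure D3:**
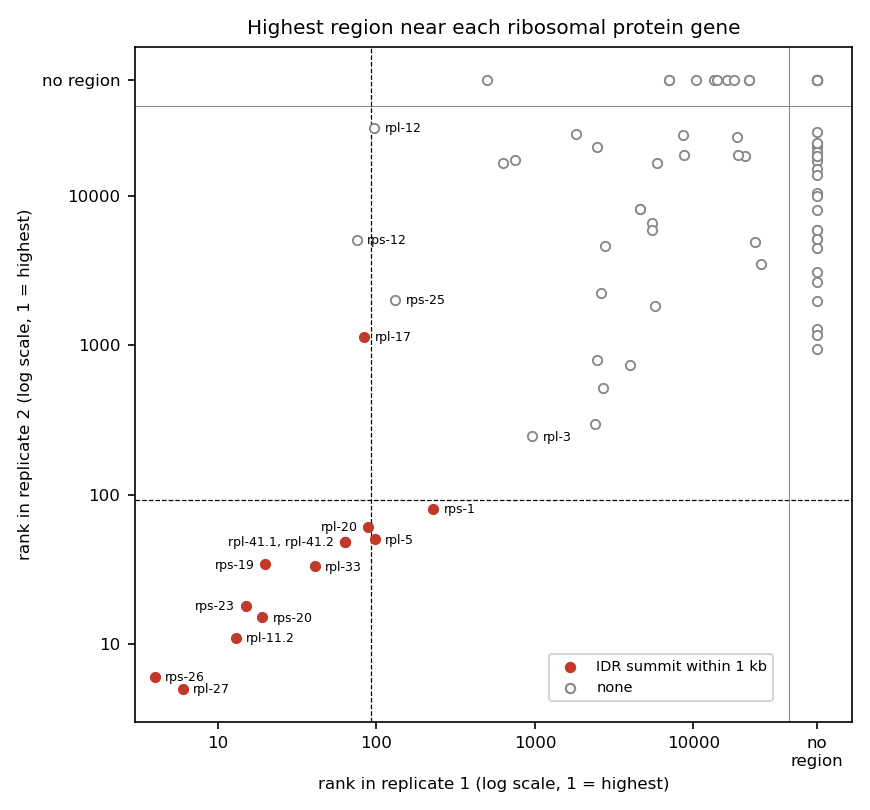
Rank of the highest region within 1 kb of each ribosomal protein gene in replicate 2 against replicate 1 (log scales), with genes lacking a region in a list along the top and right edges. Dashed lines mark rank 92. Filled points, with an IDR summit, gather at the lower left except rpl-17, while open points spread over the whole range, and rpl-12 and rps-12 are high in replicate 1 alone.

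The summits lay at a narrow distance from these genes. Upstream summits were found at 11 of the 13 genes with an IDR summit, between 234 and 400 bp from the start with a median of 312 bp. Over the 23 ribosomal protein genes with a pooled region of rank 1000 or better, 19 (82.6%) had the summit 201 to 500 bp upstream, beside 144 of 507 (28.4%) of all protein-coding genes with such a region. None of the 23 had it 501 to 1000 bp upstream, beside 22.9% of all. With any pooled region counted, 35 of 59 ribosomal protein genes (59.3%) had it 201 to 500 bp upstream, beside 18.9% of all genes. These counts are of genes and not of separate regions. The region shared by rpl-36 and rps-14 counts for both genes in this bin, as does that of rpl-24.1 and rps-10 when any region counts. The 23 also include the 13 genes with an IDR summit, so the counts are not independent.

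**Figure D4:**
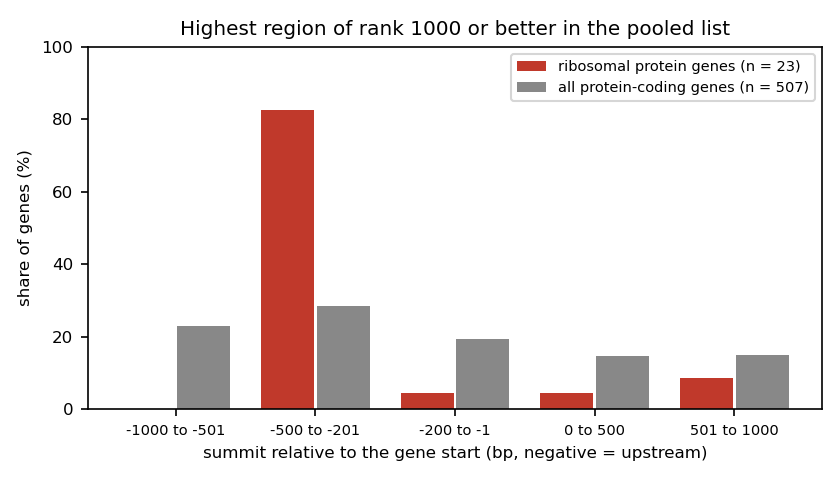
Share of genes (%) by the position of the summit relative to the gene start (bp, negative upstream), for genes with a pooled region of rank 1000 or better. Of 23 ribosomal protein genes (red) 82.6% fall in the bin from -500 to -201, against 28.4% of all 507 protein-coding genes (grey).

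Most of these promoters were shared with a gene that runs the other way. A divergent protein-coding gene, on the other strand and starting within 1 kb upstream, stood beside 48 of the 81 ribosomal protein genes (59.3%), and beside 17.7% of all protein-coding genes. An IDR summit was near 10 of the 48 ribosomal protein genes with such a neighbour (20.8%) and 3 of the 33 without one (9.09%). Over all protein-coding genes the shares were 1.67% with and 0.207% without a divergent neighbour. The 3 ribosomal protein genes without one were rpl-27, rpl-11.2 and rpl-41.2. Of these, rpl-27 had its summit 59 bp from the egl-30 start, and rpl-41.2 shared its peak with rpl-41.1. The share in that class thus rests on few genes. A pooled region of rank 1000 or better was near 17 ribosomal protein genes with a divergent neighbour (35.4%) and 6 without one (18.2%), beside 4.27% and 2.17% of all genes of these classes.

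The IDR summit lay between the 2 starts in 9 of the 10 pairs, whose starts were 397 to 839 bp apart. It was nearer the neighbour in 7 of them, and nearer the ribosomal protein gene at rpl-5 and rps-1 alone. On the way from the ribosomal protein gene to its neighbour, the summit stood at 30.5% to 85.3% of the distance, with a median of 63.7%. At rps-23 it was 248 bp from dpm-3, which encodes a subunit of dolichol-phosphate mannose synthase. At rps-19 it was 151 bp from hsr-9, a DNA damage response gene. At rpl-17 it was 216 bp from aps-3, which encodes a subunit of the adaptor complex AP-3.

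The rest of the neighbours were of various kinds. ekl-4 was 144 bp from the rps-20 summit, farl-11 was 172 bp from the rpl-33 summit and Y17G9B.5 was 150 bp from the rpl-20 summit. At the wider promoters, col-38, a cuticle collagen gene, was 439 bp from the rpl-5 summit, and ifet-1, a relative of the eIF4E transporter, was 534 bp from the rps-1 summit. Unlike the others, the rpl-41.1 summit was not between the starts, since its divergent neighbour M04F3.5 is 832 bp upstream and the summit downstream. Non-coding RNA genes started close to some summits, 27 bp away at rps-1 (F56F3.11), 28 bp at rpl-17 (Y48G8AL.18) and 35 bp at rpl-5 (F54C9.17). By nearest protein-coding start alone, only rpl-11.2, rpl-41.2, rpl-5 and rps-1 would keep the peak.

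**Figure D5:**
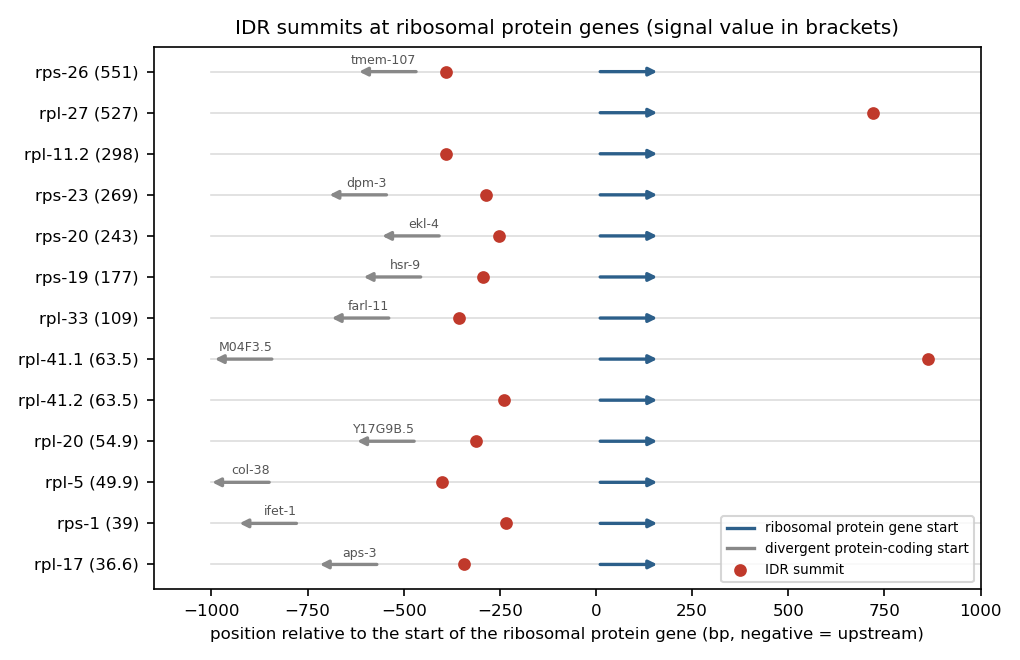
Position of the IDR summit (red point) relative to the start of each ribosomal protein gene (blue arrow at 0, bp, negative upstream), with the divergent protein-coding neighbour (grey arrow) and the pooled signal value in brackets. Summits lie 234 to 400 bp upstream in 11 of 13 rows, and downstream at rpl-27 and rpl-41.1.

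Some divergent pairs were made of a pair of ribosomal protein genes, and these shared a pooled region without an IDR summit. The rpl-36 and rps-14 starts are 663 bp apart, and their region had a signal of 22.0 (rank 898). rpl-39 and rps-30 shared a region of 13.2 (rank 13422), and rpl-24.1 and rps-10 shared one of 13.1 (rank 13625). Both of the last 2 values were below the median of 13.4 over all genes with a region.

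Sequence under the summits is shown for 6 of the genes with an IDR summit, because a pair of short words recurs in them. Each run is the 65 bases on either side of the pooled summit, from the RefSeq genome of WBcel235 (ce11), written 5′ to 3′ in the direction of the ribosomal protein gene. Capitals mark ACCGTA or its reverse complement TACGGT, and CCTGCACA or its reverse complement TGTGCAGG.
rpl-11.2 (chrX:2242944-2243074, minus strand): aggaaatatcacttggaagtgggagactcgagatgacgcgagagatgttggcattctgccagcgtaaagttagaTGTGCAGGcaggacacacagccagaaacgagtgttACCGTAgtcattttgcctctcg
rps-23 (chrIV:12391274-12391404, minus strand): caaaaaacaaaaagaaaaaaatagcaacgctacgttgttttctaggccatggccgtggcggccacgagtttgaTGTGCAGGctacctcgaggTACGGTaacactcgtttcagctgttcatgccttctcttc
rpl-33 (chrII:7105142-7105272, plus strand): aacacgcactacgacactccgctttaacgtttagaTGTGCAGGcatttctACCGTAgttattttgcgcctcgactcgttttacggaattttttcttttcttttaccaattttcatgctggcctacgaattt
rpl-20 (chrIV:4750025-4750155, minus strand): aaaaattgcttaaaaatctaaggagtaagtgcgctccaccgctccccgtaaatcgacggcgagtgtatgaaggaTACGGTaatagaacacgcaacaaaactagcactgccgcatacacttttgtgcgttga
rpl-5 (chrII:8569462-8569592, plus strand): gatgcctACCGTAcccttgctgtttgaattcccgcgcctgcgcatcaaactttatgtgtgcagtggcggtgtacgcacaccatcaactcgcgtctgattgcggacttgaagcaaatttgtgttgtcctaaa
rps-1 (chrIII:4475619-4475749, plus strand): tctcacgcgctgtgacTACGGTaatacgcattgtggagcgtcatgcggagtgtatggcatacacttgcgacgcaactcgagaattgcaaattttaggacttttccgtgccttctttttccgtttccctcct

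The 6 runs were chosen for these words, so it follows from the choice that all 6 hold ACCGTA on one strand or the other. The runs of rpl-11.2, rps-23 and rpl-33 also hold CCTGCACA, in each case on the strand opposite to the gene. Not shown are rps-26, rps-19 and the shared region of rpl-41.1 and rpl-41.2, which had no ACCGTA within 75 bp of the summit. Of these, rps-26 had CCTGCACA 5.5 bp from the summit. Also not shown are rpl-27, rps-20 and rpl-17, which had ACCGTA 36.5, 33.5 and 39.5 bp from the summit. CCTGCACA did not follow the signal over all 13 genes, since rpl-27 (527), rps-20 (243) and rps-19 (177) had higher signals than rpl-33 (109) and lacked it within 75 bp of the summit. Both words came from earlier results on these same peaks, so their presence here is a description and not new evidence. Searched on both strands within 75 bp of the summit, ACCGTA was in 9 of the 12 IDR peaks at ribosomal protein genes (75%), in 21 of the other 61 nuclear IDR peaks (34.4%), which are 21 of the 42 within 1 kb of a protein-coding start (50%), and in 3.98% of 29979 nuclear regions of the pooled list. CCTGCACA was in 4 of the 12 (33.3%), in 11 of the 61 (18%), in 10 of the 42 near a protein-coding start (23.8%) and in 0.2% of the pooled regions. The centre of ACCGTA was 11.5 to 55.5 bp from the summit, with a median of 36.5 bp. The centre of CCTGCACA was 5.5 to 26.5 bp away, with a median of 12 bp.

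Both words came from earlier results on these peaks, so their presence upstream of genes with an IDR summit was in part fixed by that choice. CCTGCACA was rare over all genes, so its absence from a set of 68 genes shows no difference. Within 500 bp upstream of the start, CCTGCACA on either strand was found at 4 of the 13 genes with an IDR summit, at none of the 68 without one and at 0.766% of all protein-coding genes. The carriers were rps-26, rpl-11.2, rps-23 and rpl-33. ACCGTA was found there at 8 of the 13 (61.5%), at 28 of the 68 (41.2%) and at 14% of all genes. By subunit it stood upstream of 25 of the 50 large subunit genes (50%) and 11 of the 31 small subunit genes (35.5%). A further word, CTGCGTCT, was in none of the 12 peaks, and stood upstream of 6.17% of ribosomal protein genes and 5.3% of all genes. The order for ACCGTA depended on the stretch searched. From 250 bp before to 50 bp after the start it was at 1 of the 13 (7.69%), 12 of the 68 (17.6%) and 8.14% of all genes. CCTGCACA was at 0 of the 81 there and at 0.446% of all genes. The upstream IDR summits lay at a median of 312 bp, outside this shorter stretch. Matches are letters in a window and do not show where a factor sat.

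The 68 genes without an IDR summit were also divided by ACCGTA upstream. The 28 with the word had a pooled region in 16 cases, at a median signal of 16.0, and 4 of these were of rank 1000 or better. The 40 without the word had a region in 30 cases, at a median of 14.3, and 6 were of rank 1000 or better. Over all protein-coding genes, 49.1% had a pooled region and 2.54% had one of rank 1000 or better. High and low regions were thus found with and without the word. Runs from 3 of the genes with no region in any list show the word with 12 bases before it and 13 after it.
rpl-10 (chrII:8143419-8143449, plus strand): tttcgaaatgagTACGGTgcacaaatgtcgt
rpl-11.1 (chrV:3586416-3586446, minus strand): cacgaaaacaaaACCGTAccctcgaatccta
rps-13 (chrIII:6375148-6375178, minus strand): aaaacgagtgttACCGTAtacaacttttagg
Thus rpl-10, rpl-11.1 and rps-13 hold the 6 letters, as rps-17 does, and had no listed region within 1 kb, while rpl-16 and rps-16 had neither the word nor a region.

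The lowest signal of the IDR set was 36.1. rpl-17 stood just inside it with 36.6 (rank 89) and rps-12 just outside it with 35.9 (rank 95). Most of the 6 highest genes outside the set ranked far apart in the replicates. rps-12 had 28.2 in replicate 1 (rank 75) and 8.77 in replicate 2 (rank 5085). rpl-12, whose protein lies at the base of the stalk, had a pooled signal of 31.7 (rank 114), with 24.9 in replicate 1 (rank 97) and 4.72 in replicate 2 (rank 28801). Its summit was 4 bp downstream of the start, unlike most of the others. rps-25 had a pooled signal of 30.0 (rank 132), with 22.5 in replicate 1 (rank 132) and 10.6 in replicate 2 (rank 2007).

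The others ranked higher in replicate 2. rpl-3, whose protein reaches towards the peptidyl transferase centre, had a pooled signal of 31.4 (rank 117), with 16.0 in replicate 1 (rank 959) and 14.9 in replicate 2 (rank 245). The replicate 1 summit was 665 bp upstream, and the pooled and replicate 2 summits were 240 bp upstream. rpl-35 had a pooled signal of 29.3 (rank 147), with 13.8 in replicate 1 (rank 2390) and 14.5 in replicate 2 (rank 297). rpl-15 had a pooled signal of 26.1 (rank 286) and lay beyond rank 2000 in each replicate.

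The sequence under 4 of these 6 summits is shown in the same layout and from the same genome as the runs under IDR summits. Those earlier runs were chosen for holding the words, so counts over the printed runs cannot be compared. Capitals again mark ACCGTA or its reverse complement.
rpl-12 (chrIV:13240582-13240712, minus strand): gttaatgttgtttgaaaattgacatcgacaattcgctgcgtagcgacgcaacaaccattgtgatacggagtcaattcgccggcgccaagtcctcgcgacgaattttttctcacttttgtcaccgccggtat
rps-25 (chrIV:5947949-5948079, minus strand): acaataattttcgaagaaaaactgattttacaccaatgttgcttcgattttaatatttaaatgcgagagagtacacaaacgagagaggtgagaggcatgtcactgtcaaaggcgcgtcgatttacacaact
rpl-35 (chrIII:7854610-7854740, plus strand): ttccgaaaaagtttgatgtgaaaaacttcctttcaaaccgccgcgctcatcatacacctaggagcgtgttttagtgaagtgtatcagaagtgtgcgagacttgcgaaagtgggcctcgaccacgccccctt
rpl-15 (chrIV:654867-654997, minus strand): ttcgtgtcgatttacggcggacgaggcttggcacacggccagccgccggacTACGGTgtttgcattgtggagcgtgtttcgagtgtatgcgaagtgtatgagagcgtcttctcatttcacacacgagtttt
Of these 4 runs the one at rpl-15 holds the 6-base word, those at rpl-12, rps-25 and rpl-35 do not, and none holds CCTGCACA.

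At the other end of the scale, rps-11 had the lowest pooled signal of a ribosomal protein gene with a region, 9.92 (rank 29456). Above it came rpl-42 with 10.4, rla-1 with 10.8, rps-22 with 10.9, rpl-23 with 11.4 and rpl-37 with 11.8. All 6 were below the median of 13.4 over all genes with a region. The replicate lists ranked rps-11 higher, with 13.5 in replicate 1 (rank 2754) and 8.96 in replicate 2 (rank 4640). Those summits were 528 and 830 bp upstream, and the pooled summit was 405 bp upstream. In each replicate list the rest of the 6 had rank 6978 or a lower place, or no region. The 46 genes that had a pooled region and no IDR summit ranged from 9.92 to 35.9, with a median of 15.2. Another 22 had no pooled region within 1 kb.

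The P-stalk of the large subunit, made by the rla- genes, recruits the elongation factors to the ribosome. None of its genes had a strong region. rla-0 had a region in replicate 2 alone, with a signal of 11.5 (rank 1289) and a summit 550 bp downstream. rla-1 had 10.8 in the pooled list (rank 24022) and 5.53 in replicate 2 (rank 21198), and rla-2 had 12.9 in the pooled list (rank 14505) alone.

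Of the pairs of like number, rpl-41.1 and rpl-41.2 shared a region, as given above. rpl-11.2 had 298 in the pooled list, while rpl-11.1 had no region in any list. rpl-24.2, a relative of the yeast biogenesis factor Rlp24, had 17.7 (rank 3528), and rpl-24.1 had 13.1 (rank 13625). rpl-25.2 had 12.99 (rank 14105) and rpl-25.1 had 12.4 (rank 16429), both in the lower part of the list.

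Other genes of the ribosome pathway were counted in the same way. Of 70 genes for mitochondrial ribosomal proteins, none had an IDR summit, beside 0.466% of all protein-coding genes, and 1 (1.43%) had a pooled region of rank 1000 or better, mrpl-23 with 29.7 (rank 141), beside 2.54% of all genes. The median signal of the 42 with a region was 13.4, as over all genes. Of 14 ribosome biogenesis genes, none had an IDR summit and 1 (7.14%) had a pooled region of rank 1000 or better. This was eif-6, whose protein keeps free large subunits from joining small ones, with 27.3 (rank 208). The ubiquitin fusion genes ubl-1 and ubq-2 each encode a ribosomal protein fused to ubiquitin or to a ubiquitin-like part. ubl-1 had an IDR summit with a pooled signal of 232 (rank 18), 119 in replicate 1 and 113 in replicate 2. ubq-2 had 32.5 in the pooled list (rank 107), 13.8 in replicate 1 and 20.2 in replicate 2, with no IDR summit.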

How the data were processed

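The authors deposited regions in narrowPeak format for ChIP-seq of 2 biological replicates of 1 group, on ce11 and ce10. Only the 4 ce11 lists (pooled, IDR and each replicate) were used. The signal of each region is the authors' value, per the deposited README made from alignments of the ChIP library and a control. No source used here gives the aligner, peak caller, signal scale or IDR threshold. Replicates were pooled by the authors for the pooled and IDR lists.

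Genes came from Ensembl release 115 (WBcel235, the assembly of ce11) and sequence from RefSeq. For each gene the highest signal and its rank were taken among regions whose summit lay within 1 kb of the annotated 5′ end, with Python 3.11.15 and matplotlib 3.10.9. The counting was tested on simulated regions. A divergent neighbour is a protein-coding gene on the other strand starting at most 1000 bp upstream. Words were searched on both strands. Some sequences are not reported here.

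With 1 group, 2 samples and no control samples, nothing was tested. Genes are not replicates, and counts are set beside those over all protein-coding genes. Named with values are the genes with an IDR summit, the 6 highest and 6 lowest without one, the P-stalk genes and pairs of like number. The members and lists were chosen with earlier results of these data known. Alternatives were another window, each annotated transcript start, the nearest start only, the nearest region in place of the highest, overlap in place of the summit, the ubiquitin fusion genes added, the stronger part of the IDR set, other divergent distances, and each replicate alone.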

Additional observations from a re-analysis of the deposited data

How the results depend on the processing

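The number of ribosomal protein genes with an IDR summit, 13 in the account above, was 7 in the stronger 46 peaks of the IDR set, with 3 of the large subunit and 5 with a divergent neighbour. The share was then 8.64% of ribosomal protein genes and 0.215% of all genes. When a peak was given only to the nearest protein-coding start, it was 4, with 3 large subunit genes, 1 small subunit gene and 2 with a divergent neighbour. Ribosomal protein genes then had a share of 4.94% and all genes one of 0.27%. With divergent starts at most 500 bp apart, 4 of these genes had a neighbour, and in 4 the summit was nearer to it. With the top 92 regions of a single replicate list in place of the IDR set, leaving out each replicate in turn, the count was 12, with 7 large and 5 small subunit genes, 9 with a neighbour and 6 to 7 nearer the neighbour. Replicate 1 alone then held rps-12 and lacked rpl-5 and rps-1, and replicate 2 alone lacked rpl-17. Within 500 bp of the start the count was 11, with 6 large and 5 small subunit genes, or 13.6% beside 0.365% of all genes. A value was said to move when it changed by more than 1.5-fold. Of the summary values, 57 stayed and 9 moved. For single genes 118 stayed and 3 moved. These were rpl-33 to 27.5 and rpl-17 to 17.5 with the nearest region in place of the highest, and rpl-42 to 18.6 within 2 kb. Left out of that tally are rpl-27, rpl-41.1, rpl-37 and rps-22 within 500 bp, where they had no pooled region. The rpl-27 value of 527 and the rpl-41.1 value of 63.5 thus depend on the wider window. Depth is unknown, a fold between lists cannot be read, and 2 replicates give no error for a gene.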

Other observations

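Around ACCGTA some ribosomal protein promoters shared a longer run, aaacgagtgttACCGTA, seen first in the printed sequences of rpl-11.2, rps-23 and rps-13 and chosen after they were read. Searched on both strands within 500 bp upstream of the start, its 17 bases were found at 7 of 81 ribosomal protein genes (8.64%) and at 20 of 19973 protein-coding genes (0.1%). The 7 were rpl-11.2, rpl-21, rpl-24.1, rpl-34, rps-10, rps-13 and rps-23, of which rpl-24.1 and rps-10 are a divergent pair with a single copy between them. The genes that the run was read from are kept in the 7. The 20 also include dpm-3, nfx-1, C14B9.10 and ppm-1.H, divergent neighbours of some of the 7. Both counts are therefore of genes and not of separate copies. The region was strong at rpl-11.2 (298) and rps-23 (269), which also hold CCTGCACA, and low at rpl-21 (12.7) and at the pair rpl-24.1 and rps-10 (13.1). rpl-34 and rps-13 had no pooled region. rpl-11.2 and rpl-33 shared a different run of 15 bases around CCTGCACA, ttagaTGTGCAGGca. Both runs are descriptions of letters, and their part in the signal was not tested.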
